A study of Mus musculus with 18 samples.

Results

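Zinc oxide in a cell culture membrane was compared with the same polymer without it, in cells that received no ultrasound. The comparison uses 6 of the 18 libraries of the series: the 3 from PLLA/ZnO membranes without ultrasound (PLLA/ZnO -US) and the 3 from plain PLLA membranes without ultrasound (PLLA -US), chosen by their sample labels. PLLA is poly-L-lactic acid, a biodegradable polyester. All 6 cultures were MC3T3-E1, a pre-osteoblast line established from newborn mouse skull bone, seeded at 20000 cells per well on sterilised 15 mm discs and grown for 5 days. The other libraries come from both membranes with ultrasound for 10 min each day, and from PLLA/ZnO membranes with added collagen (PLLA/ZnO@Col). The series asks whether piezoelectric membranes of this kind help bone cells, and the contrast described here shows what zinc oxide itself went with before any ultrasound was applied. The labels state neither the amount of zinc oxide nor the zinc released, and they do not say that replicates were separate cultures. The p-values below therefore measure only the spread between these libraries, which may be technical.

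Zinc entering a cell is bound by metallothioneins, small cysteine-rich proteins whose genes are switched on by the zinc-sensing transcription factor MTF1 through metal response elements in their promoters. Zinc transporters of the SLC39 family bring zinc into the cytosol, and those of the SLC30 family take it out. Metallothioneins are also known to respond to oxidants, glucocorticoids and low oxygen. Low oxygen acts through the hypoxia-inducible factors (HIF), which raise glucose uptake, glycolysis and a set of mitochondrial and matrix-modifying genes. Osteoblasts are known to rely strongly on glycolysis.

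The cells carried part of the osteoblast programme. Levels are given as FPKM, sequenced fragments per kilobase of transcript scaled to library size. Runx2, the master transcription factor of the lineage, was at 8.06, 6.89 and 9.46 FPKM on PLLA/ZnO and at 9.06, 9.54 and 8.79 FPKM on PLLA. Col1a1, the main bone collagen, lay between 804 and 1160 FPKM on PLLA/ZnO and between 761 and 998 FPKM on PLLA. Spp1, the gene of the bone sialoprotein osteopontin, was at 1710, 2320 and 1450 FPKM on PLLA/ZnO and at 1920, 1490 and 1860 FPKM on PLLA. Sp7, Alpl and Bglap, other genes of the osteoblast lineage, stayed under 1 FPKM in all 6 libraries, and Ibsp was at or near 0. Some defining markers of the labelled cell type were thus high and others near 0.

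Total gene counts ran from 48307580 to 54986980 on PLLA/ZnO and from 49507020 to 53480496 on PLLA. One library stood apart. Replicate 3 on PLLA/ZnO had Cd68, a macrophage lysosomal protein, at 0.891 FPKM, against 4.51 to 5.64 FPKM in the other 5 libraries. Lyz2, the macrophage lysozyme, was at 7.36 FPKM there, against 17.8 to 21.2 FPKM in the other 5, and Csf1r at 0.103 FPKM, against 1.17 to 1.4 FPKM. Over the list of 15 macrophage and osteoclast markers, summed levels ran from 25.2 to 51.5 FPKM on PLLA/ZnO and from 49.5 to 51.8 FPKM on PLLA. Of these markers, 8 reached 1 FPKM in at least 1 of the 6 libraries, and C1qa and C1qb were at 0 in all 6. The same markers were low in replicate 3 of both membranes with ultrasound. The HIF targets described and several lists are given with and without PLLA/ZnO -US replicate 3. Fibroblast and mesenchymal markers summed to 1660 to 1810 FPKM on PLLA/ZnO and 1340 to 1620 FPKM on PLLA. Osteocyte markers summed to 138 to 169 FPKM on PLLA/ZnO and 156 to 168 FPKM on PLLA. For chondrocyte markers the sums were 14.0 to 22.3 FPKM on PLLA/ZnO and 17.1 to 20.5 FPKM on PLLA. Markers of fat, epithelium, endothelium and skeletal muscle summed to at most 5.14 FPKM in any of the 6 libraries, with Krt18, Cldn5, Kdr, Myod1 and Myog at 0. In bulk RNA, fewer cells of a type and less RNA per cell cannot be told apart.

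No gene separated the membranes beyond the spread between libraries in the main test. None of the 11936 genes tested passed an adjusted p of 0.05 in edgeR's quasi-likelihood test with Benjamini-Hochberg adjustment, where the smallest adjusted p was 0.478. At an unadjusted p under 0.05 there were 1175 genes, 9.84% of those tested, of which 641 (5.37%) were higher and 534 (4.47%) were lower on PLLA/ZnO. Chance alone would give 597. DESeq2 on the same 6 libraries called 34 genes (0.285%), 32 of them higher (0.268%) and 2 lower (0.0168%). Of the 23 with an ordinary gene name, 22 were higher, among them both metallothioneins and the glycolytic genes Tpi1, Pgk1, Aldoa and Eno1. The differences given below therefore did not pass edgeR's correction, and the words higher and lower describe these libraries only. A log2 fold change with a standard error (SE) is given for each gene described in full. Across all genes tested, 45.7% had a positive log2 fold change (PLLA/ZnO over PLLA), and the median was -0.02. In 908 genes (7.61%) all 3 PLLA/ZnO libraries lay above all 3 PLLA libraries, and in 1188 (9.95%) they lay below.

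Transcript length moved with the membranes. The median log2 fold change was 0.21 among the shortest decile of transcripts (at most 843 bases) and -0.25 among the longest decile (6515 bases or more). Within single libraries, the shortest decile minus the longest decile was 0.21, 0.55 and -0.07 on PLLA/ZnO and -0.36, -0.23 and -0.10 on PLLA, as log2 deviations from the mean of the 6. Replicates 1 and 2 on PLLA/ZnO leaned towards short transcripts, and replicate 3 on PLLA/ZnO lay beside PLLA replicate 3. Each list median over all 6 libraries is therefore given below also after subtraction of the median of its members' length deciles. For some single genes, but not all, the value with each library's length trend removed in the fit is given too.

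**Figure D1:**
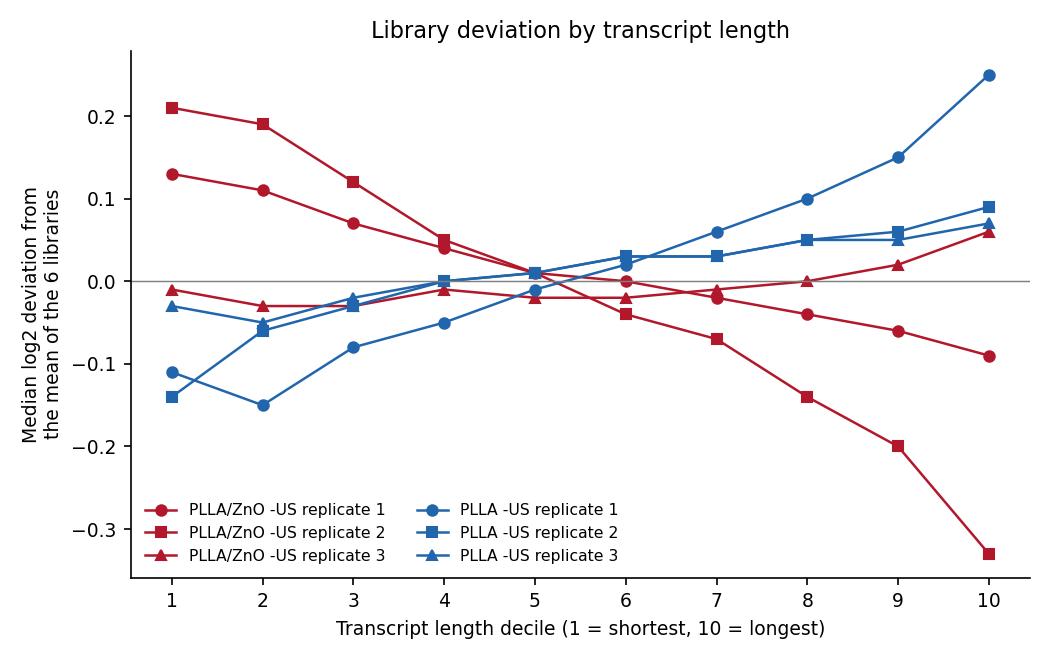
Median log2 deviation of each library from the mean of the 6 (vertical axis) for 10 equal groups of genes by transcript length (horizontal axis), PLLA/ZnO in red and PLLA in blue, 1 line per library. The lines of replicates 1 and 2 on PLLA/ZnO slope down with length and those of the 3 PLLA libraries slope up, while replicate 3 on PLLA/ZnO stays between -0.03 and 0.06.

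The 2 metallothionein genes were higher on PLLA/ZnO in every library. Mt1 (chromosome 8, 94179082 to 94180327, GRCm38) was at 119, 143 and 143 FPKM on PLLA/ZnO and at 84.7, 81.7 and 87.7 FPKM on PLLA. Mt2, its neighbour on the same strand (94172664 to 94173568), was at 349, 442 and 353 FPKM on PLLA/ZnO and at 272, 238 and 259 FPKM on PLLA. The groups did not overlap for either gene, and the lowest PLLA/ZnO library stood well clear of the highest PLLA library. The log2 fold changes were 0.66 (SE 0.11) and 0.56 (SE 0.12), each with an edgeR adjusted p of 0.478. Both transcripts are short, and with each library's length trend removed the values were 0.49 for Mt1 and 0.34 for Mt2. Leaving out any 1 library gave 0.61 to 0.73 for Mt1 and 0.46 to 0.64 for Mt2.

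The promoters of both genes are shown because metal response elements are the textbook route from zinc to their transcription. These are the 250 bases before the RefSeq start (GRCm38.p6, plus strand), at chr8:94178839-94179088 for Mt1 and chr8:94172368-94172617 for Mt2. The RefSeq starts differ from the gene starts given above. The Mt1 stretch runs past 94179082, and the Mt2 stretch ends before 94172664. Capitals mark the metal response cores TGCACNC and TGCGCNC on either strand.
Mt1: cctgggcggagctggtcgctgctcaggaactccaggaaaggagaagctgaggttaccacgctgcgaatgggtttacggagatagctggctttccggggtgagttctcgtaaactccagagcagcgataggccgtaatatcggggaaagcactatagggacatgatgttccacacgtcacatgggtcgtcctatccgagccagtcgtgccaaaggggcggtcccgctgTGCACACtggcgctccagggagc
Mt2: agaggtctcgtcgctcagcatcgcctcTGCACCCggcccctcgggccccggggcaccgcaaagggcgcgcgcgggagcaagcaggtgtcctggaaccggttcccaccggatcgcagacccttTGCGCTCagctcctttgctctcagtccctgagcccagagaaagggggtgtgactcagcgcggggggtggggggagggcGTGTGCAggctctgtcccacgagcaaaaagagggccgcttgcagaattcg
Windows of 300 bases, which add 50 bases past the start, held 3 such cores at Mt1 and 4 at Mt2. Of these, 1 at Mt1 and 3 at Mt2 lie in the printed stretches. At least 1 core stood in 25.7% of all 32851 RefSeq windows, in 36.8% of 8540 windows of tested genes, and in 8 of 16 windows of the zinc gene list. The share was similar in lists unrelated to zinc, with 11 of 20 windows of glycolysis genes and 11 of 26 of HIF targets. The window of the zinc exporter gene Slc30a1, which did not differ between the membranes, held 2 cores. A match is a run of letters and not a measured site.

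Zinc transporters showed no common direction. Of 18 tested genes on the list of zinc and metallothionein genes, 10 were higher and 8 lower, with a median log2 fold change of 0.01, or 0.07 after subtraction of the length medians. Slc30a1, the zinc exporter of the cell surface and a known MTF1 target, was at 1.72, 1.59 and 1.5 FPKM on PLLA/ZnO and at 1.67, 1.55 and 1.56 FPKM on PLLA. Its groups overlapped, with a log2 fold change of 0.00 (SE 0.14). Slc39a10, an importer, was at 4.29, 4.4 and 4.58 FPKM on PLLA/ZnO and at 7.27, 4.88 and 5.53 FPKM on PLLA (log2 fold change -0.43, SE 0.17). All 3 PLLA/ZnO libraries lay below the PLLA libraries, although PLLA replicate 1 alone was far above the rest. Slc39a6, another importer, was at 14.0, 16.5 and 14.5 FPKM on PLLA/ZnO and at 17.9, 17.8 and 16.5 FPKM on PLLA, a log2 fold change of -0.22 (SE 0.10). Mtf1 itself was at 1.79 to 2.19 FPKM on PLLA/ZnO and at 2.18 to 2.66 FPKM on PLLA, and the groups touched. With the length trend removed, the difference was -0.25 for Slc39a10 and -0.05 for Mtf1. Both have long transcripts, and these were lower on PLLA/ZnO in general.

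Glycolysis genes were mostly higher on PLLA/ZnO. Of 21 tested genes, 19 were higher on PLLA/ZnO, 12 of them at an unadjusted edgeR p under 0.05 and none lower, against 5.37% of all genes in that direction. In 12 genes all PLLA/ZnO libraries lay above all PLLA libraries, as in 7.61% of all genes. The median log2 fold change was 0.35 before and 0.33 after subtraction of the length medians. Without PLLA/ZnO replicate 3 the median was 0.27 and 8 genes were higher at an unadjusted p under 0.05, where 7.42% of all genes were. Leaving out any 1 of the other libraries gave medians of 0.34 to 0.43, and the number of genes at that level was 8 without PLLA replicate 1 (2.45% of all genes) and 7 without PLLA replicate 3 (3.43%). The genes covered the pathway from the cell surface to lactate. Slc2a1, the main glucose transporter, was at 43.8, 39.5 and 50.2 FPKM on PLLA/ZnO and at 36.1, 39.4 and 32.2 FPKM on PLLA, with the groups barely apart (log2 fold change 0.31, SE 0.13). Hk2, which traps glucose as its phosphate, was at 17.1, 16.2 and 18.1 FPKM on PLLA/ZnO and at 16.3, 16.2 and 13.2 FPKM on PLLA, and the groups overlapped. Pfkl, the liver-type subunit of the committing enzyme phosphofructokinase, was at 50.3, 49.9 and 58.0 FPKM on PLLA/ZnO and at 35.5, 43.4 and 36.3 FPKM on PLLA (log2 fold change 0.46, SE 0.11).

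The middle and lower steps differed more evenly. Tpi1, triosephosphate isomerase (chromosome 6, 124810586 to 124814296), was at 422, 469 and 451 FPKM on PLLA/ZnO and at 284, 340 and 301 FPKM on PLLA (log2 fold change 0.53, SE 0.10). Pgk1, phosphoglycerate kinase (chromosome X, 106187100 to 106203699), was at 656, 754 and 802 FPKM on PLLA/ZnO and at 472, 546 and 469 FPKM on PLLA (log2 fold change 0.57, SE 0.11). Both genes kept a wide gap between the membranes, with little spread within them. Ldha, which makes lactate, was at 577, 567 and 595 FPKM on PLLA/ZnO and at 403, 491 and 411 FPKM on PLLA, a log2 fold change of 0.41 (SE 0.10). Pkm, pyruvate kinase, came closer to overlap, at 656, 563 and 659 FPKM on PLLA/ZnO and 459, 561 and 488 FPKM on PLLA. Gapdh had the largest log2 fold change of the list, 1.06, but an SE of 0.57. It was at 90.5, 110 and 202 FPKM on PLLA/ZnO and at 16.9, 106 and 72.8 FPKM on PLLA, with overlap. Gapdh has many near-identical processed copies in the mouse genome, as do other glycolytic and ribosomal protein genes, and Eno1b (log2 fold change 0.48) is one of Eno1 (0.45). The treatment of reads shared between such copies is not given in the sources used here, so their levels are uncertain.

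**Figure D2:**
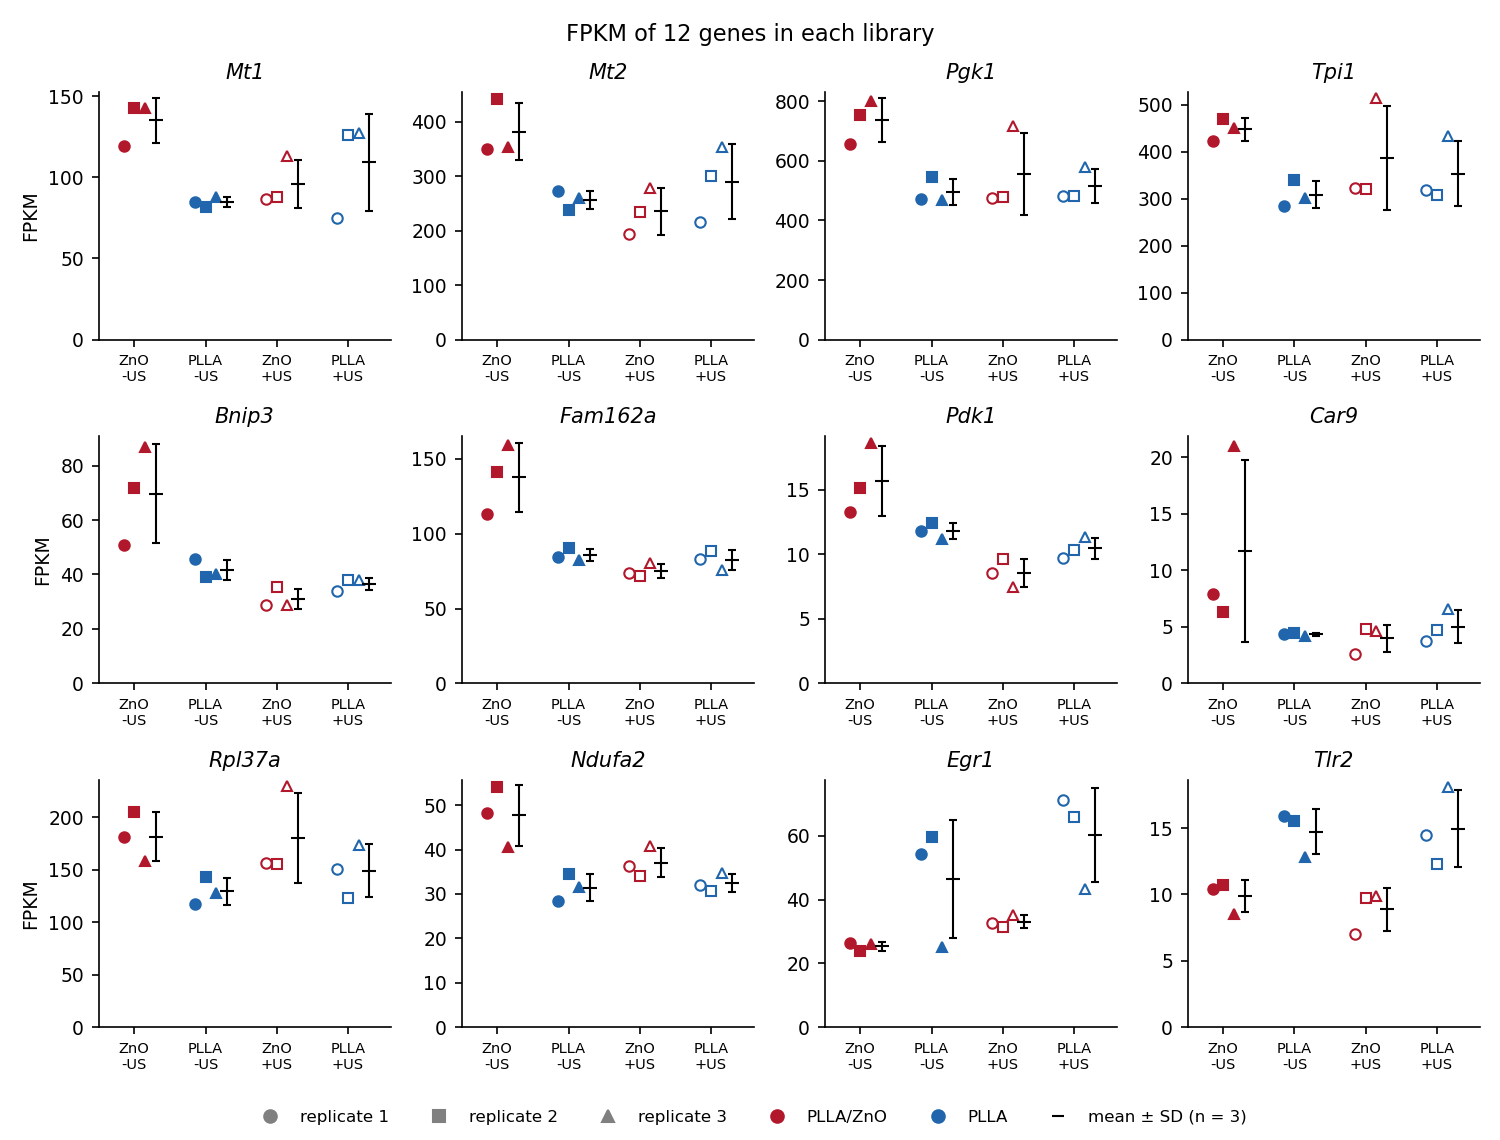
FPKM (vertical axes, from 0) of 12 genes in each library on PLLA/ZnO (red) and PLLA (blue), without ultrasound (filled) and with it (open), with the mean ± SD of each group of 3. Mt1, Mt2, Pgk1, Tpi1, Bnip3 and Fam162a show filled red points above all filled blue points, and no such gap between the open points.

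HIF targets outside glycolysis were also higher, with more spread. Of 32 tested genes, 27 were higher on PLLA/ZnO, 13 at an unadjusted edgeR p under 0.05 (5.37% of all genes) and none lower. In 14 genes the PLLA/ZnO libraries lay above all PLLA libraries (7.61% of all genes). The median log2 fold change was 0.28, or 0.37 after subtraction of the length medians. PLLA/ZnO replicate 3, the library with few macrophage transcripts, stood highest on this list. Its members had a median log2 deviation of 0.46 there, against 0.00 and -0.01 in the other PLLA/ZnO libraries and -0.14, -0.14 and -0.17 on PLLA. Without that library the median was 0.16 and 7 genes were higher at an unadjusted edgeR p under 0.05, where 7.42% of all genes were. That number was 8 without PLLA replicate 1 (2.45% of all genes) and 7 without PLLA replicate 3 (3.43%), with medians of 0.32 and 0.29. The part of the macrophage transcripts in this result was not tested otherwise. The 2 remaining PLLA/ZnO libraries still lay above the 3 PLLA libraries on the list's deviation.

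Several members act at mitochondria. Fam162a, a mitochondrial protein linked to cell death in hypoxia (chromosome 16, 36043761 to 36071594), was at 113, 141 and 159 FPKM on PLLA/ZnO and at 84.7, 90.2 and 82.6 FPKM on PLLA (log2 fold change 0.67, SE 0.13). Higd1a, which modulates the respiratory chain in hypoxia, was at 9.35, 10.7 and 14.2 FPKM on PLLA/ZnO and at 6.55, 7.07 and 7.2 FPKM on PLLA (log2 fold change 0.71, SE 0.16). In both genes all 3 PLLA/ZnO libraries were above PLLA and replicate 3 was the highest. Bnip3, a receptor for removal of mitochondria (chromosome 7, 138890836 to 138909519), was at 50.7, 71.6 and 86.9 FPKM on PLLA/ZnO and at 45.8, 39.1 and 40.2 FPKM on PLLA, a log2 fold change of 0.73 (SE 0.19). Pdk1, the mitochondrial kinase that limits pyruvate oxidation, was at 13.3, 15.1 and 18.6 FPKM on PLLA/ZnO and at 11.8, 12.4 and 11.2 FPKM on PLLA (log2 fold change 0.41, SE 0.14). Both followed the same order, with PLLA/ZnO replicate 3 on top and replicate 1 nearest to PLLA. Without PLLA/ZnO replicate 3 the log2 fold change was 0.55 for Fam162a, 0.51 for Higd1a, 0.53 for Bnip3 and 0.26 for Pdk1. With all 6 libraries and the length trend removed it was 0.48 for Fam162a, 0.67 for Higd1a and 0.64 for Bnip3.

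Car9, the carbonic anhydrase of hypoxic cell surfaces, had the largest log2 fold change of the list at 1.44 (SE 0.42). It was at 7.9, 6.34 and 21.0 FPKM on PLLA/ZnO and at 4.36, 4.48 and 4.15 FPKM on PLLA. Most of that size came from 1 library, since without PLLA/ZnO replicate 3 the log2 fold change was 0.71. Ndrg1, a stress-response protein, was at 15.5, 15.0 and 34.4 FPKM on PLLA/ZnO and at 14.0, 15.7 and 12.7 FPKM on PLLA, so that only replicate 3 was high, and without it the log2 fold change was 0.10. P4ha2, a collagen prolyl hydroxylase, was at 22.1, 24.9 and 34.8 FPKM on PLLA/ZnO and at 18.3, 20.5 and 18.1 FPKM on PLLA. Hilpda, a lipid droplet protein, was at 14.5, 16.2 and 20.7 FPKM on PLLA/ZnO and at 12.2, 10.9 and 10.5 FPKM on PLLA. These 2 genes lay above PLLA in all 3 libraries, with log2 fold changes of 0.52 (SE 0.17) for P4ha2 and 0.61 (SE 0.16) for Hilpda, or 0.30 and 0.44 without replicate 3.

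Promoters of 3 genes are shown because they carry the core of the hypoxia response element, the sequence HIF binds. The stretches are the 250 bases before the RefSeq start (GRCm38.p6), written 5′ to 3′ along the gene: chr7:138909507-138909756 (minus strand) for Bnip3, chr16:36071562-36071811 (minus strand) for Fam162a and chrX:106186850-106187099 (plus strand) for Pgk1. Capitals mark ACGTG and GCGTG on either strand, some of which overlap.
Bnip3: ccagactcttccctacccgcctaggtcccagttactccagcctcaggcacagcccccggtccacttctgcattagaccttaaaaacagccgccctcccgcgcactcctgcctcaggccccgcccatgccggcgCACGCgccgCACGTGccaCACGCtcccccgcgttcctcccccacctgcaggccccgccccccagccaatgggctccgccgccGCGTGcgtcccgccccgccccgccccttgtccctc
Fam162a: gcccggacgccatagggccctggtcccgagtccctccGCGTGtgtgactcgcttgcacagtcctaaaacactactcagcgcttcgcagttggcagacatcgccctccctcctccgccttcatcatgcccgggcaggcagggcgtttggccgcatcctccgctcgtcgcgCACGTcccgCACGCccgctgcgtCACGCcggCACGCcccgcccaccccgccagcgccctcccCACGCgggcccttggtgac
Pgk1: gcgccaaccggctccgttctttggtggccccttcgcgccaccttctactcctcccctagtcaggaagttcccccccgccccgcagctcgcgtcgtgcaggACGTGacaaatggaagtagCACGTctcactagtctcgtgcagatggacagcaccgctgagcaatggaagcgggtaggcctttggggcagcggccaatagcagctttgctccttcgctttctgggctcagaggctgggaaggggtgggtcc
Bnip3 had 5 matches, Fam162a had 6 and Pgk1 had 2. At least 1 match stood in 21 of 26 windows of HIF targets (80.8%) and in 14 of 20 of the glycolysis list (70.0%), against 65.5% of the windows of tested genes and 43.8% of all windows. ACGTG alone stood in 53.8% of the HIF target windows and 45.0% of the glycolysis windows, against 26.9% of those of tested genes. Tpi1 had no match in its window, which says nothing of HIF at that gene.

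Between the same membranes with ultrasound, HIF targets and metallothioneins had negative log2 fold changes in the median. Those 6 libraries are separate from the ones above. HIF targets there had a median log2 fold change of -0.09, with 8 of 32 above 0, against 45.1% of all genes. One gene of the list was lower at an unadjusted edgeR p under 0.05, against 1.2% of all genes. Mt1 was at 86.7, 87.7 and 113 FPKM on PLLA/ZnO with ultrasound and at 74.8, 126 and 127 FPKM on PLLA with ultrasound (log2 fold change -0.14, SE 0.23). Fam162a was at 73.6, 71.4 and 80.1 FPKM on PLLA/ZnO with ultrasound and at 83.2, 88.3 and 75.5 FPKM on PLLA with ultrasound (-0.10, SE 0.13). Both genes overlapped between the membranes there. The difference between the contrasts was tested in edgeR over the 12 libraries. No gene passed the correction (smallest adjusted p 1), and 116 genes (0.972%) had an unadjusted p under 0.05. They included 8 of the 32 HIF targets and both metallothioneins, all with a lower zinc oxide effect under ultrasound. DESeq2 also called none, with 149 genes at an unadjusted p under 0.05. On the log2 scale the interaction was -0.94 for Bnip3 (SE 0.25), -0.77 for Fam162a (SE 0.19) and -0.81 for Mt1 (SE 0.27). Without PLLA/ZnO -US replicate 3 it was -0.75 for Bnip3, -0.66 for Fam162a and -0.76 for Mt1, and 7 HIF targets had an unadjusted p under 0.05, against 1.31% of all genes. Leaving out PLLA/ZnO -US replicate 1 or 2 gave 12 such HIF targets each, with 139 and 202 of all 11936 genes at that level. Leaving out PLLA -US replicate 1, 2 or 3 gave 8, 7 and 7 such HIF targets, with 91, 101 and 110 of all genes. Glycolysis genes had a median of 0.13 with ultrasound. Their median log2 deviation there was -0.13, -0.13 and 0.30 on PLLA/ZnO and -0.05, -0.12 and 0.12 on PLLA. Only replicate 3 of each membrane was above 0. No glycolysis gene reached an unadjusted p under 0.05 for the difference between the contrasts. PLLA/ZnO -US enters both this difference and the contrast it is set against, so a chance deviation of those libraries would appear in both.

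**Figure D3:**
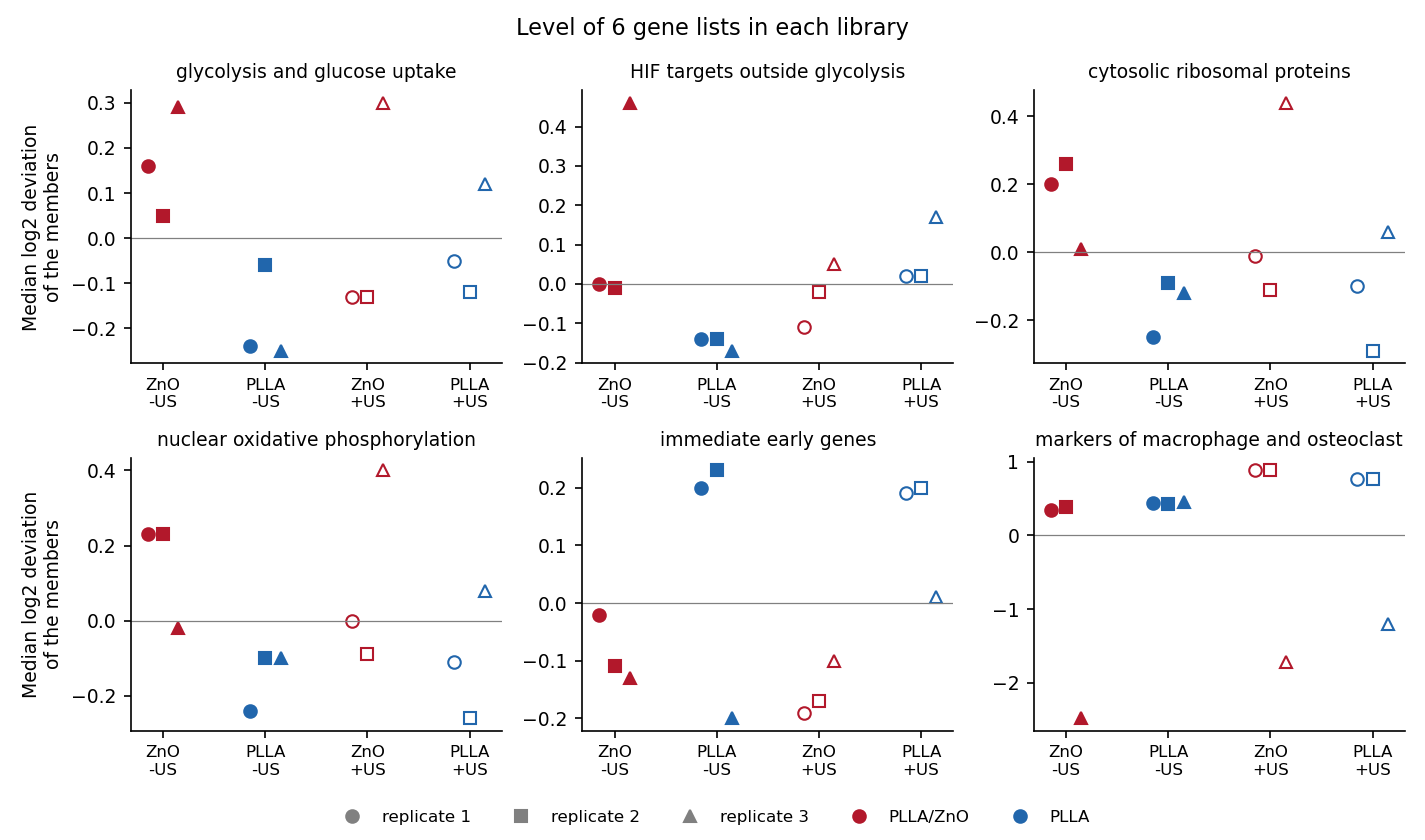
Median log2 deviation of the members of 6 lists (vertical axes) in each library from the mean of the 6 libraries with the same ultrasound setting, PLLA/ZnO in red left of PLLA in blue, filled without and open with ultrasound. For HIF targets PLLA/ZnO replicate 3 without ultrasound reaches 0.46, and for macrophage and osteoclast markers the same library is at -2.48.

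Genes of the ribosome and of the respiratory chain were higher as broad groups, and these lists moved with transcript length. Among 79 genes of cytosolic ribosomal proteins, 78 lay higher on PLLA/ZnO, 56 at an unadjusted edgeR p under 0.05 (5.37% of all genes), with a median log2 fold change of 0.31. Small and large subunit genes differed alike, with medians of 0.32 over 32 genes and 0.31 over 46. All 72 nuclear oxidative phosphorylation genes were higher, 39 at an unadjusted edgeR p under 0.05, also with a median of 0.31. After subtraction of the length medians these values were 0.14 and 0.15, and with the length trend removed in the fit 21 ribosomal and 14 respiratory genes kept an unadjusted p under 0.05, where 3.82% of all genes were higher at that level. Without PLLA/ZnO replicate 1 there were 19 ribosomal and 20 respiratory genes at that level (2.82% of all genes), and without PLLA/ZnO replicate 3 there were 67 and 51 (7.42%). Leaving out PLLA replicate 1 gave 21 and 23 (2.45%), and leaving out PLLA replicate 3 gave 28 and 28 (3.43%). As a share of all counts, cytosolic ribosomal proteins took 6.45%, 7.03% and 5.74% on PLLA/ZnO and 4.88%, 5.66% and 5.42% on PLLA. The groups did not overlap (difference 1.09 percentage points, two-sided exact permutation p = 0.1, the smallest that 3 against 3 allows).

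Single members followed the lists. Rpl37a, a protein of the large subunit, was at 181, 205 and 158 FPKM on PLLA/ZnO and at 117, 143 and 128 FPKM on PLLA (log2 fold change 0.48, SE 0.12). Fau, the precursor of a small subunit protein, was at 315, 345 and 291 FPKM on PLLA/ZnO and at 217, 252 and 231 FPKM on PLLA (0.44, SE 0.10). Replicate 3 was the lowest PLLA/ZnO library for both, the reverse of its place among HIF targets. With the length trend removed Rpl37a was at 0.26 and Fau at 0.23. Rplp0, a stalk protein with a longer transcript, had a log2 fold change of 0.18 (SE 0.10), or 0.04 with the length trend removed. Ndufa2, a subunit of complex I, was at 48.3, 54.1 and 40.6 FPKM on PLLA/ZnO and at 28.4, 34.4 and 31.5 FPKM on PLLA (log2 fold change 0.59, SE 0.13), and kept 0.37 with the length trend removed. By complex, the median was 0.31 in the 34 genes of complex I and 0.32 in complexes III, IV and V, against 0.19 in the 4 genes of complex II. With the length trend removed in the fit the medians lay closer together. They were 0.14 in complex I, 0.10 in II, 0.11 in III, 0.13 in IV and 0.17 in V. In complex IV, 9 of 10 genes were higher at an unadjusted edgeR p under 0.05 before the length step, against 5.37% of all genes.

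Transcripts from the mitochondrial genome itself were lower in the median. Of 13 mitochondrially encoded protein transcripts, 10 were lower on PLLA/ZnO, none with an unadjusted edgeR p under 0.05, with a median log2 fold change of -0.23, or -0.41 after subtraction of the length medians. With the length trend removed in the fit, 3 were lower at that level, against 2.2% of all genes. Without PLLA replicate 2 the median was -0.41 and 7 were lower at that level, against 5.8% of all genes. The median was -0.09 without PLLA replicate 1 or 3, -0.12 without PLLA/ZnO replicate 1 and -0.35 without PLLA/ZnO replicate 2. They took 2.45%, 3.37% and 2.60% of counts on PLLA/ZnO and 3.67%, 2.27% and 3.67% on PLLA (two-sided exact permutation p = 0.6). PLLA replicate 2 was the lowest of the 6 and PLLA/ZnO replicate 2 was well above its group, so the membranes overlapped. mt-Rnr1, the small ribosomal RNA of mitochondria, went the other way, at 90.1, 89.9 and 83.0 FPKM on PLLA/ZnO and 60.3, 56.8 and 58.9 FPKM on PLLA (log2 fold change 0.57, SE 0.10). With the length trend removed mt-Rnr1 was at 0.38. The libraries were made from polyadenylated RNA, so the level of this ribosomal RNA depends on its capture as well as its amount. Mitochondrial ribosomal protein genes, which are nuclear, had a median of 0.17 with 37 of 40 higher, or 0.13 after subtraction of the length medians. Proteasome genes had a median of 0.14 with 28 of 31 higher, or 0.03 after subtraction of the length medians. Without PLLA/ZnO replicate 3 these medians were 0.29 and 0.24, and without PLLA/ZnO replicate 2 they were 0.11 and 0.06.

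Immediate early genes, the first to respond to growth factors and mechanical load, were lower on PLLA/ZnO than on 2 of the 3 PLLA libraries. Egr1 was at 26.4, 23.8 and 26.0 FPKM on PLLA/ZnO and at 54.3, 59.6 and 25.2 FPKM on PLLA (log2 fold change -0.87, SE 0.28). Fos, a subunit of the AP-1 factor, was at 3.98, 3.12 and 3.24 FPKM on PLLA/ZnO and at 9.91, 11.6 and 2.26 FPKM on PLLA (-1.20, SE 0.50). For both, PLLA replicate 3 sat with or below the PLLA/ZnO libraries, so the groups overlapped. Nr4a1 had the same layout, at 3.73, 3.76 and 3.21 FPKM on PLLA/ZnO and 6.94, 7.15 and 3.66 FPKM on PLLA. Of 31 tested genes, 24 were lower on PLLA/ZnO, 7 of them at an unadjusted edgeR p under 0.05, against 4.47% of all genes, and 1 was higher. The median was -0.21, or -0.24 after subtraction of the length medians. Leaving out PLLA replicate 3 gave 12 lower genes at that level (1.94% of all genes), and leaving out PLLA replicate 2 (5.8%) or PLLA replicate 1 (0.779%) gave 1. Leaving out PLLA/ZnO replicate 1 (2.29%) or 2 (5.58%) gave 3, and leaving out PLLA/ZnO replicate 3 (6.96%) gave 2. The median was -0.14 without PLLA replicate 1 and -0.12 without PLLA replicate 2. Nr4a2 was the member whose groups did not overlap downwards, at 1.99, 1.88 and 2.08 FPKM on PLLA/ZnO and 3.64, 2.73 and 2.64 FPKM on PLLA. With ultrasound the list had a median of -0.24, and no member differed between the contrasts at an unadjusted edgeR p under 0.05. Egr1 there was at 32.6, 31.3 and 35.2 FPKM on PLLA/ZnO and at 71.3, 66.0 and 43.4 FPKM on PLLA, without overlap.

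Targets of YAP and TAZ, the coactivators that read matrix stiffness, and mechanosensing genes leaned lower, and so did long transcripts in general. The YAP and TAZ list had 18 of 22 genes lower, 4 at an unadjusted edgeR p under 0.05 (4.47% of all genes), and a median of -0.21, or -0.05 after subtraction of the length medians. The median was -0.07 without PLLA/ZnO replicate 2, where 1 gene was lower at that level (5.58% of all genes). That number was 1 without PLLA/ZnO replicate 1 (2.29%) and 0 without PLLA replicate 1 (0.779%). Ccn1, a secreted matricellular target, was at 110, 133 and 112 FPKM on PLLA/ZnO and at 191, 203 and 96.7 FPKM on PLLA, with PLLA replicate 3 again lowest. Ccn2, its relative, was at 3.71, 4.5 and 3.2 FPKM on PLLA/ZnO and at 5.58, 5.07 and 4.75 FPKM on PLLA (log2 fold change -0.44, SE 0.15), with no overlap. It has a transcript near the middle of the length range, and its value with the length trend removed was -0.47. Mechanosensitive channel and calcium signalling genes had 26 of 32 lower and a median of -0.16, or -0.03 after subtraction and -0.07 without PLLA/ZnO replicate 2. It was -0.10 without PLLA replicate 2. Piezo1, the stretch-gated channel, was at 26.1, 16.4 and 24.9 FPKM on PLLA/ZnO and at 27.2, 30.0 and 24.2 FPKM on PLLA, and only PLLA/ZnO replicate 2 was low. P2ry2, an ATP receptor that takes part in mechanical signalling of bone cells, was at 0.871, 0.914 and 0.965 FPKM on PLLA/ZnO and at 1.54, 1.42 and 1.16 FPKM on PLLA (-0.58, SE 0.18).

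Before the length step the osteoblast list leaned lower and the matrix lists had medians near 0, with a few members further from it. Of 18 tested osteoblast genes, 12 were lower and 6 higher on PLLA/ZnO, and 1 lower gene, the phosphate transporter Slc20a2, had an unadjusted edgeR p under 0.05. The median was -0.16, or -0.09 after subtraction of the length medians. The log2 fold change was -0.17 for Runx2 (SE 0.13), 0.13 for Col1a1 (SE 0.16) and 0.04 for Spp1 (SE 0.19). The groups overlapped for all 3 genes. Fibrillar and associated matrix genes had a median of -0.04 over 27 genes, and 0.16 after subtraction of the length medians. The sign of that median depends on the length step and on single libraries, since it was 0.13 with 23 of 27 higher without PLLA/ZnO replicate 2, -0.19 with 24 of 27 lower without PLLA/ZnO replicate 3 and 0.05 without PLLA replicate 2. Within this list Dcn, the collagen-binding proteoglycan decorin, was higher (0.30, SE 0.11) and Vcan, the large proteoglycan versican, was lower (-0.49, SE 0.19). With the length trend removed Vcan was at -0.12 and Dcn at 0.42. Collagen processing genes had 20 of 25 higher and a median of 0.09, or 0.11 after subtraction of the length medians. That median was 0.00 without PLLA/ZnO replicate 3, 0.03 without PLLA/ZnO replicate 1, 0.18 without PLLA/ZnO replicate 2 and 0.15 without PLLA replicate 2. Mmp13, the collagenase of bone remodelling (chromosome 9, 7272514 to 7283331), was at 3.13, 2.76 and 1.6 FPKM on PLLA/ZnO and at 1.33, 1.22 and 1.25 FPKM on PLLA (log2 fold change 0.97, SE 0.26). All PLLA/ZnO libraries were above PLLA, replicate 3 by the least.

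Antioxidant genes were mostly higher on PLLA/ZnO. Of 36 tested, 30 were higher, 9 at an unadjusted edgeR p under 0.05 (5.37% of all genes), and 2 were lower at that level (4.47% of all genes). The median was 0.16, or 0.11 after subtraction of the length medians. The number higher at that level was 5 without PLLA replicate 1 (2.45% of all genes). Hmox1, heme oxygenase, was at 62.1, 69.0 and 72.7 FPKM on PLLA/ZnO and at 54.4, 48.7 and 50.5 FPKM on PLLA (log2 fold change 0.40, SE 0.11). Prdx5, a peroxiredoxin, was at 74.4, 80.8 and 64.0 FPKM on PLLA/ZnO and at 49.6, 56.6 and 50.1 FPKM on PLLA (0.48, SE 0.11). Both sets were clear of PLLA in all libraries. Gclc, which limits glutathione synthesis, was lower, at 14.1, 12.5 and 13.9 FPKM on PLLA/ZnO and 18, 17.5 and 18.2 FPKM on PLLA (-0.41, SE 0.10). Nqo1, a standard target of the oxidant sensor NRF2, had a log2 fold change of 0.06 (SE 0.09). Cholesterol synthesis genes had 18 of 24 higher, 6 at an unadjusted edgeR p under 0.05 (5.37% of all genes), and a median of 0.12. That number was 3 without PLLA/ZnO replicate 1 (2.82%), and 2 without PLLA replicate 1 (2.45%) or PLLA replicate 3 (3.43%). It was 7, 5 and 7 without PLLA/ZnO replicate 2, PLLA/ZnO replicate 3 and PLLA replicate 2. In those fits 751, 886 and 772 of all 11936 genes were higher at that level. After the length trend was removed all 24 were above 0, with a median of 0.17, and subtraction of the length medians gave 0.16. Pmvk, phosphomevalonate kinase, led them at 12, 9.5 and 8.91 FPKM on PLLA/ZnO and 5.74, 7.38 and 7.01 FPKM on PLLA.

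Tlr2, a gene outside the lists that was among the lower genes with the smallest p-values, codes for the receptor for bacterial lipoproteins (chromosome 3, 83836272 to 83841767). Tlr2 was at 10.4, 10.7 and 8.49 FPKM on PLLA/ZnO and at 15.9, 15.5 and 12.8 FPKM on PLLA (log2 fold change -0.58, SE 0.13). It was also lower with ultrasound, at 7.02, 9.71 and 9.92 FPKM on PLLA/ZnO and 14.5, 12.3 and 18.1 FPKM on PLLA (-0.70, SE 0.19). In neither setting did the membranes overlap, which the rule that chose Tlr2 required for the libraries without ultrasound. Tnfaip3, a feedback inhibitor of NF-kB, was at 8.17, 8.78 and 8.37 FPKM on PLLA/ZnO and at 13.2, 12.5 and 9.48 FPKM on PLLA (-0.48, SE 0.14). The list of inflammatory cytokines and NF-kB genes had 20 of 27 lower, 3 at an unadjusted edgeR p under 0.05 (4.47% of all genes) and none higher at that level. Its median was -0.12, or -0.16 after subtraction of the length medians, and -0.04 without PLLA replicate 1. Without PLLA/ZnO replicate 3, which had few macrophage transcripts, the median was -0.06, with 4 genes lower (6.96% of all genes) and 3 higher (7.42%) at that level, and Tlr2 was at -0.49. Ccl2, a monocyte chemokine, was at 119, 157 and 72.9 FPKM on PLLA/ZnO and at 152, 117 and 113 FPKM on PLLA, with overlap.

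Among the other genes with the smallest p-values, several of the higher ones had short and several of the lower ones long transcripts. S100a6, a calcium-binding protein (chromosome 3, 90612882 to 90624181), was at 300, 310 and 256 FPKM on PLLA/ZnO and at 175, 215 and 192 FPKM on PLLA (log2 fold change 0.57, SE 0.11). Crabp2, a carrier of retinoic acid, was at 43.1, 51.8 and 45.5 FPKM on PLLA/ZnO and at 27.2, 31.8 and 34.3 FPKM on PLLA (0.58, SE 0.11). Hmgn2, a nucleosome-binding protein, was at 31.1, 39.1 and 33.0 FPKM on PLLA/ZnO and at 20, 23 and 23.1 FPKM on PLLA (0.63, SE 0.11). None of the 3 overlapped, which the rule that chose them required. With the length trend removed S100a6 was at 0.36 and Crabp2 at 0.39. Hmgn2, whose transcript is of moderate length, kept 0.58. Among lower genes, E2f8, a repressor of cell cycle genes (chromosome 7, 48866429 to 48881596), was at 4.84, 4.29 and 4.72 FPKM on PLLA/ZnO and at 7.15, 6.5 and 6.98 FPKM on PLLA (-0.58, SE 0.11). It kept -0.52 with the length trend removed and was the only lower gene with an ordinary name that DESeq2 called. Brca1, of DNA repair, had a log2 fold change of -0.48 (SE 0.12), and -0.26 with the length trend removed. Cdk6, a kinase of cell cycle entry with a very long transcript, had -0.49 (SE 0.13) and -0.16. Cell cycle and mitosis genes as a list had 32 of 43 lower and a median of -0.11, or -0.10 after subtraction of the length medians. Foxm1 and Tpx2 were the 2 with an unadjusted edgeR p under 0.05, where 4.47% of all genes were lower. That number was 9 without PLLA/ZnO replicate 2 (5.58% of all genes), and without PLLA replicate 2 it was 7 (5.8%). It was 1 without PLLA/ZnO replicate 1 or 3 and 0 without PLLA replicate 1 or 3. The median was -0.07 without PLLA/ZnO replicate 3.

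**Figure D4:**
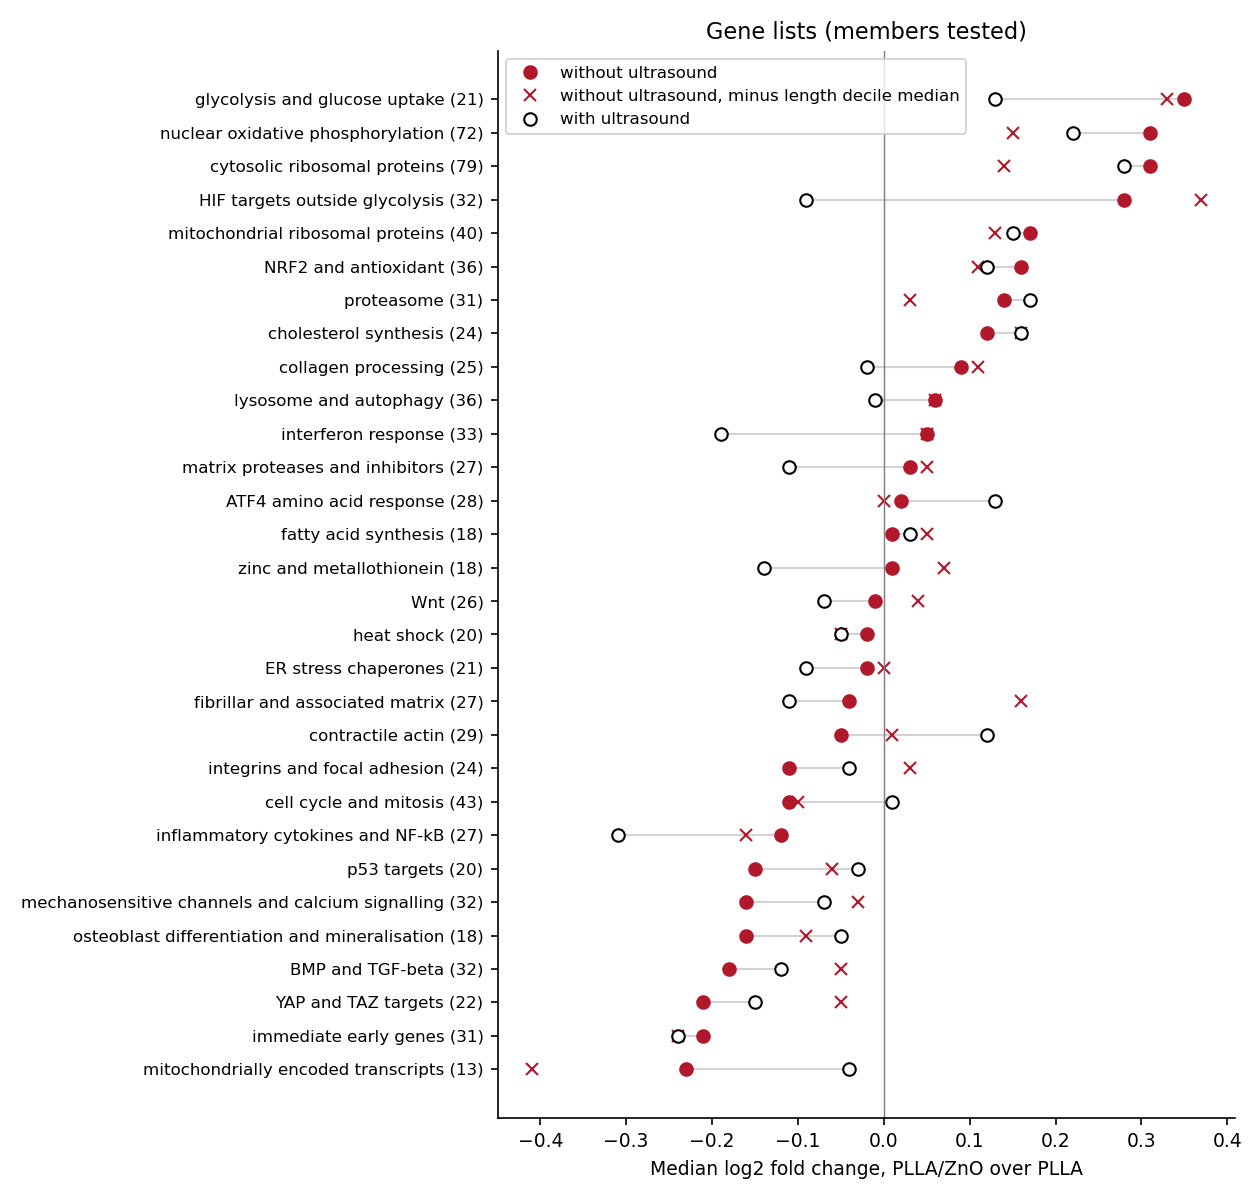
Median log2 fold change of PLLA/ZnO over PLLA (horizontal axis) for the gene lists with at least 5 tested members, without ultrasound (red points), the same minus the length decile medians (red crosses) and with ultrasound (open circles), with the number tested in brackets. After the length step glycolysis moves from 0.35 to 0.33, HIF targets from 0.28 to 0.37 and ribosomal proteins from 0.31 to 0.14, and HIF targets are at -0.09 with ultrasound.

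Over all genes, the zinc oxide contrast with ultrasound gave no gene past the correction in edgeR and 240 genes (2.01%) at an unadjusted p under 0.05. DESeq2 called 6 there. With the replicate number as a block, edgeR again called none and 985 genes had an unadjusted p under 0.05. Replicate 3 of each membrane with ultrasound carried fewer Y-linked reads, 19.2 CPM on PLLA/ZnO and 37.9 CPM on PLLA, against 111 to 125 CPM in the other 4. Without both, edgeR called 11 genes. The median log2 fold change by length decile ran from 0.15 to -0.19 with ultrasound, the same direction as without it.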

How the data were processed

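RNA with poly(A) tails from MC3T3-E1 cultures was sequenced after Illumina library preparation, per the labels. The submitters' processing notes name cutadapt 1.9, FastQC and the build GRCm38, but no aligner, counting tool or strand setting is recorded in what was used here. One table, with columns named per the file headers, was deposited by the authors and holds raw whole-number counts per gene and FPKM values. Counts of 30452 genes in the 6 libraries were normalized by TMM, and 11936 genes with an FPKM of at least 1 in at least 3 of the 18 libraries were tested with edgeR 4.0.16 (R 4.3.3, quasi-likelihood F-test, two-sided, Benjamini-Hochberg adjustment, 4 residual degrees of freedom, common biological coefficient of variation 0.175). DESeq2 1.42.0 and limma 3.58.1 were alternatives, with other scalings, filters and libraries. Only the 6 libraries compared entered the fit, because libraries of other groups had a wider spread (0.28 over all 18). The test was also run on simulated counts with the means and spread of these libraries, with 50 genes changed by each known fold. It recovered 8 of 50 at a 1.5-fold change, 42 at 2-fold and 48 at 3-fold, with 6 false calls. All pairs of the 6 libraries differed beyond sampling noise by chi-square.

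Transcript lengths are those of the longest transcript of each gene in GENCODE vM21, found for 11925 of the tested genes. The length step either subtracted the median log2 fold change of the gene's length decile or added each library's smoothed length trend (lowess, span 0.3) as an offset; both were chosen after seeing the data. Promoter windows are from RefSeq on GRCm38.p6.

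The libraries, gene lists and panel were chosen with earlier results of these data known. Named genes were the 12 higher and 12 lower genes with the smallest p among those with groups that did not overlap, a mean of at least 2 FPKM and no clone or pseudogene name (none passed the correction, which the rule put first), up to 4 members per list by smallest p, and the panel, some left out for length. Hk2, Gapdh, Ndrg1, Rplp0, Pkm, Csf1r, Ccl2, Tpx2 and the other list members beyond these were chosen after their values were seen. Same-numbered libraries without ultrasound deviated apart (correlations -0.22, -0.325 and -0.069), so the numbers do not pair them. Those with ultrasound deviated together (0.561, 0.55 and 0.73). Replicates 1 and 2 also did so across numbers (0.528 and 0.446), while replicate 3 went against both (-0.558 to -0.68). The numbers therefore cannot be said to pair these libraries either. At 48307580 counts or more per library, depth made counting error small, so replicate spread set the precision of the genes named. Library shares were compared with two-sided exact permutation tests.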

Additional observations from a re-analysis of the deposited data

Results flagged for a closer look

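Pdk1, the mitochondrial kinase that limits pyruvate oxidation, showed zinc oxide effects of opposite direction without and with ultrasound. Without ultrasound all 3 PLLA/ZnO libraries (13.3, 15.1 and 18.6 FPKM) lay above all 3 PLLA libraries (11.8, 12.4 and 11.2 FPKM). With ultrasound all 3 PLLA/ZnO libraries (8.55, 9.61 and 7.43 FPKM) lay below all 3 PLLA libraries (9.72, 10.3 and 11.3 FPKM). The difference between the effects was -0.66 on the log2 scale (SE 0.19), and it did not pass the correction over all genes in edgeR (adjusted p = 1, unadjusted p under 0.05). Without PLLA/ZnO -US replicate 3, the highest of the 12 libraries, it was -0.51 (SE 0.16).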

How the results depend on the processing

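The count of genes called without ultrasound was 0 in edgeR and limma under every scaling, filter, pseudocount and set of libraries run, and with each library left out (0 to 0), but 34 in DESeq2. The number at an unadjusted p under 0.05 was 142 with all 18 libraries, 519 with 12, 719 with the length offset, and 385 to 1717 with single libraries left out; it was 385 without PLLA replicate 1, 610 without PLLA/ZnO replicate 1 and 642 without PLLA replicate 3. The smallest adjusted p by edgeR reached 0.0721 without PLLA replicate 3, against 0.478 with all 6 libraries and 0.316 to 0.99 with any other library left out. With the replicate number as a block the test called 0 genes and 514 had an unadjusted p under 0.05; these libraries share only a number. Under the length offset and the length medians, the list medians were 0.07 and 0.07 for zinc genes, 0.15 and 0.14 for ribosomal proteins and 0.14 and 0.15 for oxidative phosphorylation. As shares of FPKM and not counts, PLLA/ZnO minus PLLA was -1.86 percentage points for mitochondrial genes, -1.85 for mitochondrially encoded proteins and -0.617 for the 100 most abundant genes (exact permutation p = 0.3, 0.3 and 0.7). With ultrasound, 11 genes were called without replicate 3 of both membranes and 6 by DESeq2, and 0 to 0 with single libraries left out. For the difference between the contrasts, 0 to 1 gene was called with single libraries left out, the 1 without PLLA/ZnO +US replicate 2. Of the genes named, 6 changed sign under an alternative. With the length offset the values were -0.06 for Nqo1, -0.10 for Spp1 and 0.02 for Runx2. With single libraries left out, Col1a1 ran from -0.06 to 0.25, Spp1 from -0.15 to 0.18, Slc30a1 from -0.06 to 0.07 and Ccl2 from -0.40 to 0.09. The cause of these changes was not tested.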
